A study of Rattus norvegicus with 8 samples.

Results

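The genes described here are 9 markers of smooth muscle and of mural cells, the contractile cells and pericytes that wrap blood vessels. They are Acta2, Actg2, Myh11, Myl9, Tagln, Cnn1, Smtn, Lmod1 and Rgs5. Their members are all probe sets of the array whose only gene symbol in the platform annotation is one of these 9, which gave 11 of 31099 probe sets. Smtn and Myh11 have 2 probe sets each and the other genes 1 each. Another 5 probe sets carry the symbols of both Acta2 and Actc1, the cardiac actin gene, and are not members. The values come from the tibialis anterior, a fast-twitch limb muscle, of 8 Sprague-Dawley rats, with 1 array per rat. The 4 hyperthyroid rats were injected intraperitoneally every 2 days over 6 weeks with triiodothyronine (T3, the active thyroid hormone), 25 µg for each 100 g they weighed, and their muscles were taken 24 hours after the last injection. The 4 control rats were untreated, and no vehicle injection is named for them. Each group held 3 males and 1 female, but which array came from the female is not labelled. Hyperthyroid arrays are called by their replicate numbers 1, 2, 3 and 5, and control arrays by 7, 8, 9 and 11.

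Smooth muscle contracts with its own set of actins, a smooth muscle myosin heavy chain and a regulatory light chain that is switched on by phosphorylation. Many of its contractile genes are driven by serum response factor (SRF) with the coactivator myocardin, which act through a DNA element named the CArG box. In a limb muscle these cells lie in the walls of arteries, arterioles and veins and, as pericytes, along capillaries, so their transcripts are a small part of the RNA of a tissue made mostly of striated fibres. In whole-muscle RNA, fewer cells of a type and less RNA per cell cannot be told apart.

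RefSeq's table of promoters (build GRCr8) held 5 of the 9 genes, namely Acta2, Actg2, Cnn1, Rgs5 and Smtn. The 250 bases before the annotated start are shown for Acta2 and Smtn, the pair of genes with the highest correlation over the arrays, and for Actg2, the gene with the largest group difference. They are written 5′ to 3′, and capitals mark CArG-like stretches, in which 1 of the 6 core letters of the CArG box is not A or T.
Acta2, GRCr8 chr1:241172504-241172753, minus strand: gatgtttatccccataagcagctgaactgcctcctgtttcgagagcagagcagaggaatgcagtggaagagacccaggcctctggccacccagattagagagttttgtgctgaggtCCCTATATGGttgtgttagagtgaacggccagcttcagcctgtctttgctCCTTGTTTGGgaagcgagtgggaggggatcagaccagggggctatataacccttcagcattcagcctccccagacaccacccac
Smtn, GRCr8 chr14:82644515-82644764, minus strand: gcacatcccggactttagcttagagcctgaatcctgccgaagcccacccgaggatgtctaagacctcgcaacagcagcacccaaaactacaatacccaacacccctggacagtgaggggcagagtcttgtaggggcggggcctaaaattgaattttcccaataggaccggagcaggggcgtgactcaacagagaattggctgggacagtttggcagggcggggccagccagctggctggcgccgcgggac
Actg2, GRCr8 chr4:117594040-117594289, minus strand: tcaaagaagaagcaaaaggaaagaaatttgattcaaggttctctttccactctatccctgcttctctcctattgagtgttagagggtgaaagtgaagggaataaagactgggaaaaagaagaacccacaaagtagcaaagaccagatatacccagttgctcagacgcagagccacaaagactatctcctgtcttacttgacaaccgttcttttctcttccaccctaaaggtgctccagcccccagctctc
Acta2 held 2 CArG-like stretches, CCCTATATGG and CCTTGTTTGG, which begin 134 and 84 bases before the start. The CArG box and the CArG-like form read alike on both strands and were searched over 33469 RefSeq promoters of the same length. An exact CArG box stood in 1.497% of them and in none of the 5 member promoters. A CArG-like stretch stood in 6.84% of all promoters, and 2 or more stretches of either kind in 0.693%. No stretch of either kind was in these windows of Actg2, Cnn1, Rgs5 or Smtn, and the letters TATAAA, searched on both strands, were in none of the 5, against 12.9% of all promoters. A match in such a window is a description of its letters only.

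Every deposited value is an intensity, the brightness of a probe set on a linear scale. Array medians ran from 38.8 to 42.0 in hyperthyroid and from 43.5 to 54.9 in control muscle, while the mean of each array, with 2% of values left out at each end, was 150. The ratio of the 3′ to the 5′ control probe set of GAPDH, a sign of RNA quality, ran from 1.202 to 1.31 on hyperthyroid and from 1.33 to 1.46 on control arrays, and that of beta-actin from 1.43 to 1.90 and from 1.48 to 2.16. Control replicates 11 and 9 stood apart on the first and second principal component of all kept probe sets (94.7 on the first, the others -25.3 to 23.9, and 87.2 on the second, the others -26.8 to 8.96). The part of these features in the results below was not tested. That the tissue was skeletal muscle was borne out by its markers. Acta1, the skeletal actin, averaged 41610 ± 4291 in hyperthyroid and 62345 ± 7213 in control muscle (SD, n = 4 each). All 9 skeletal muscle identity genes on the list were measured. Which limb muscle was taken rests on the label.

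All 10 member probe sets that passed the filter on low values had a log2 fold change, hyperthyroid over control, below 0, and none of them passed the test. The median of the 10 was -0.68, against -0.0077 over all 18625 probe sets tested. Below 0 lay 50.8% of all probe sets. With limma and Benjamini-Hochberg adjustment over all probe sets, 0 of the 10 had an adjusted p under 0.05. Of all probe sets 0.0322%, or 6, did, and none of these was lower in hyperthyroid muscle. An unadjusted p under 0.05 with a value below 0 was reached by 4 of the 10, those of Actg2, Rgs5 and Tagln and the brighter of Smtn, and by 4.76% of all probe sets (9.68% in either direction). The groups did not overlap, with all hyperthyroid arrays below all control arrays, for 1 of the 10, that of Actg2, and for 3.16% of all probe sets (6.15% in either direction). Without hyperthyroid replicate 1 the median of the 10 was -0.45. The filter kept probe sets by their mean over all 8 arrays, and the 1 member under it was the second probe set of Myh11. Cnn1 passed only through the control arrays, with a mean log2 value of 4.398 in hyperthyroid and 5.38 in control muscle against the limit of 4.69, so that its direction was set by the filter. Of the 9 probe sets above the limit in both groups, 9 were below 0 with a median of -0.57, against 49.6% and 0.0027 over the 16935 probe sets of which the same is true.

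**Figure D1:**
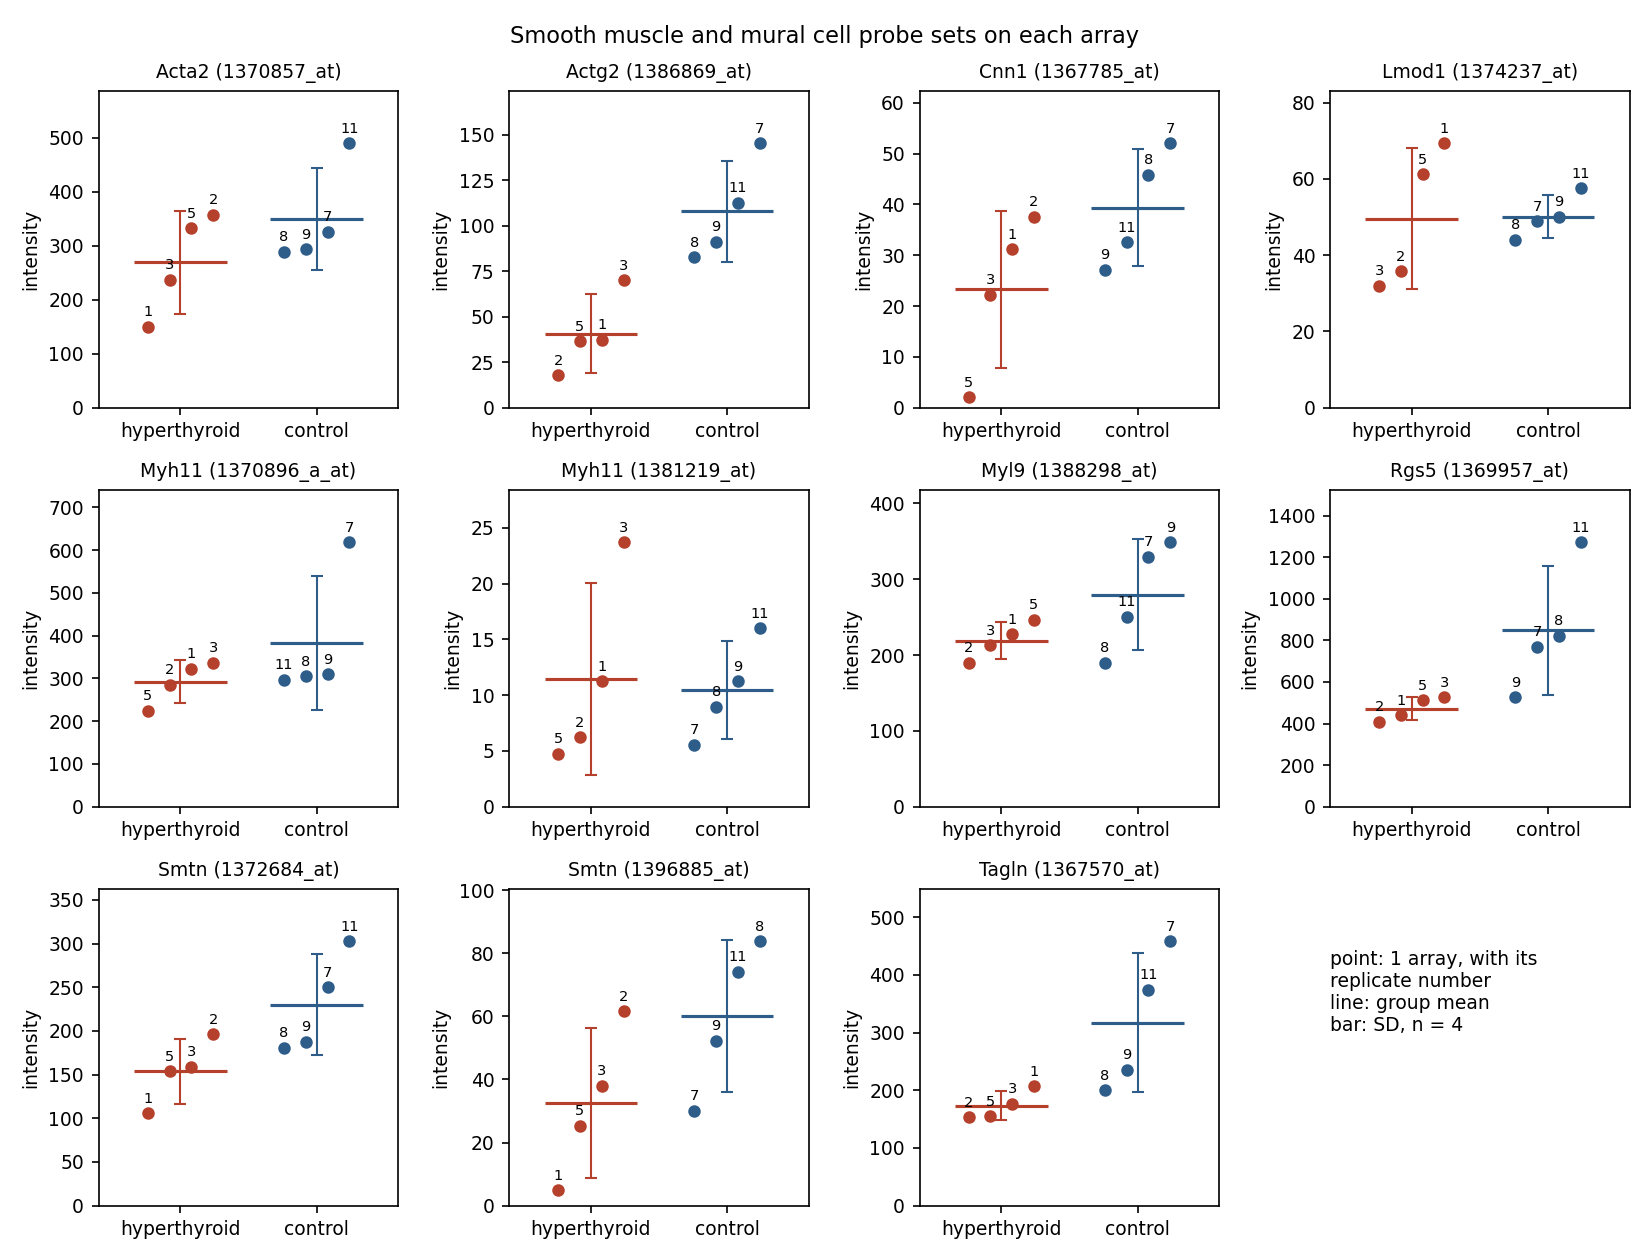
Intensity (linear axis from 0) of the 11 member probe sets on each array, hyperthyroid left and control right; each point is 1 array with its replicate number, the line is the group mean and the bar the SD (n = 4). Only for Actg2 do all 4 hyperthyroid points lie below all 4 control points.

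The 2 smooth muscle actins had group differences of unlike size. Actg2 (probe set 1386869_at) encodes the gamma actin best known from visceral smooth muscle. Its intensity was 37.3, 17.99, 70.1 and 36.6 on hyperthyroid arrays 1, 2, 3 and 5, and 145, 82.6, 91.1 and 113 on control arrays 7, 8, 9 and 11. Every hyperthyroid array lay below every control array, with replicate 2 the lowest of all and control replicate 7 the highest. The means were 40.5 ± 21.7 in hyperthyroid and 108 ± 27.9 in control muscle (SD, n = 4 each). Its log2 fold change was -1.44 ± 0.39 (SE, limma adjusted p = 0.282). Its 95% interval ran from -2.28 to -0.60, and it is the largest group difference among the members.

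Acta2 (1370857_at) encodes the alpha actin of vascular smooth muscle. Its intensity was 150, 357, 237 and 333 on hyperthyroid arrays 1, 2, 3 and 5, and 326, 289, 293 and 490 on control arrays 7, 8, 9 and 11. The groups overlapped: hyperthyroid replicates 2 and 5 exceeded 3 of the 4 control arrays, and control replicate 11 exceeded all others. The log2 fold change was -0.41 ± 0.27 (SE, limma adjusted p = 0.641), with a 95% interval from -0.99 to 0.16. Without hyperthyroid replicate 1 it was -0.16, and without control replicate 11 it was -0.24. The 5 probe sets shared with Actc1 had another order of arrays. The brightest of them (1370856_at) read 6649, 1900, 481 and 851 on hyperthyroid arrays 1, 2, 3 and 5, and 3078, 1027, 358 and 6230 on control arrays 7, 8, 9 and 11. In all 5, replicate 1 was the highest hyperthyroid array, whereas it was the lowest of all 8 for the probe set of Acta2 alone. Their log2 fold changes ran from -1.16 ± 0.86, in the 1 under the filter, to 0.38 ± 0.74 (SE), and none passed.

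The myosin genes had smaller group differences. Myh11 encodes the smooth muscle myosin heavy chain, the most specific of these markers. Its kept probe set (1370896_a_at) read 322, 285, 337 and 224 on hyperthyroid arrays 1, 2, 3 and 5, and 618, 306, 309 and 297 on control arrays 7, 8, 9 and 11. Control replicate 7 stood far above the other 7 arrays, which overlapped between the groups. The log2 fold change was -0.33 ± 0.24 (SE, limma adjusted p = 0.689), with a 95% interval from -0.85 to 0.19, and it was -0.073 without control replicate 7 and -0.21 without hyperthyroid replicate 5. The other probe set of Myh11 (1381219_at) was dim, at 4.74 to 23.7 in hyperthyroid and 5.55 to 16.0 in control muscle, and gave -0.0026 ± 0.66 (SE) without the filter.

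Myl9 (1388298_at), the regulatory light chain of smooth muscle and non-muscle myosin, read 227, 190, 213 and 246 on hyperthyroid arrays 1, 2, 3 and 5, and 329, 190, 349 and 251 on control arrays 7, 8, 9 and 11. Control replicate 8 fell among the hyperthyroid arrays, and the other 3 control arrays lay above all of them. The log2 fold change was -0.31 ± 0.22 (SE, limma adjusted p = 0.664), with a 95% interval from -0.78 to 0.15. It was -0.196 without control replicate 9 and -0.48 without control replicate 8.

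Among the actin-binding proteins, Tagln and Smtn had the values farthest from 0 relative to their error. Tagln (1367570_at) encodes transgelin, or SM22, an actin-binding protein abundant in smooth muscle. It read 207, 154, 177 and 155 on hyperthyroid arrays 1, 2, 3 and 5, and 458, 199.9, 236 and 374 on control arrays 7, 8, 9 and 11. Only hyperthyroid replicate 1 and control replicate 8 crossed, and control replicates 7 and 11 were well above the rest. The means were 173 ± 25.1 in hyperthyroid and 317 ± 121 in control muscle (SD, n = 4 each). The log2 fold change was -0.79 ± 0.26 (SE, limma adjusted p = 0.360), with a 95% interval from -1.34 to -0.24.

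Smtn encodes smoothelin, a marker of contractile smooth muscle. Its brighter probe set (1372684_at) read 106, 196, 159 and 154 on hyperthyroid arrays 1, 2, 3 and 5, and 250, 181, 188 and 303 on control arrays 7, 8, 9 and 11. Of the hyperthyroid arrays, only replicate 2 was above any control array. This gave a log2 fold change of -0.57 ± 0.24 (SE, limma adjusted p = 0.481), with a 95% interval from -1.10 to -0.050. Its dimmer probe set (1396885_at) read 4.89, 61.6, 38.0 and 25.4 on hyperthyroid arrays 1, 2, 3 and 5, and 30.0, 83.8, 52.3 and 74.2 on control arrays 7, 8, 9 and 11. Both probe sets had hyperthyroid replicate 1 as their lowest array and replicate 2 as the highest of the hyperthyroid arrays, but control replicate 7 was high in the brighter and the lowest control array in the dimmer. The dimmer probe set gave -1.07 ± 0.62 (SE), and without hyperthyroid replicate 1 it gave -0.48.

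Cnn1 (1367785_at), or calponin, restrains the myosin of smooth muscle. Its intensity was low, at 31.2, 37.6, 22.2 and 2.02 on hyperthyroid arrays 1, 2, 3 and 5, and 52.0, 45.8, 27.1 and 32.5 on control arrays 7, 8, 9 and 11. Apart from hyperthyroid replicate 5, which was near 0, the groups overlapped. The log2 fold change was -0.98 ± 0.70 (SE, limma adjusted p = 0.676), and -0.33 without that array. Lmod1 (1374237_at), a leiomodin that nucleates actin filaments, read 69.3, 35.8, 31.98 and 61.3 on hyperthyroid arrays 1, 2, 3 and 5, and 48.9, 44.0, 50.0 and 57.6 on control arrays 7, 8, 9 and 11. Here 2 hyperthyroid arrays were above and 2 below all control arrays. Its log2 fold change of -0.077 ± 0.38 (SE) had a 95% interval from -0.90 to 0.74, and its sign turned under other scalings, at 0.12 after quantile normalization and 0.14 with arrays centred on their medians.

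Rgs5 (1369957_at) encodes a regulator of G-protein signalling and is a marker of pericytes and arterial smooth muscle rather than of the contractile apparatus. It read 441, 409, 528 and 511 on hyperthyroid arrays 1, 2, 3 and 5, and 769, 823, 527 and 1272 on control arrays 7, 8, 9 and 11. Control replicate 9 lay just under the highest hyperthyroid array, and the other 3 control arrays were clear of both. The means were 472 ± 56.4 in hyperthyroid and 848 ± 311 in control muscle (SD, n = 4 each). The log2 fold change was -0.78 ± 0.22 (SE, limma adjusted p = 0.300), with a 95% interval from -1.26 to -0.30.

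**Figure D2:**
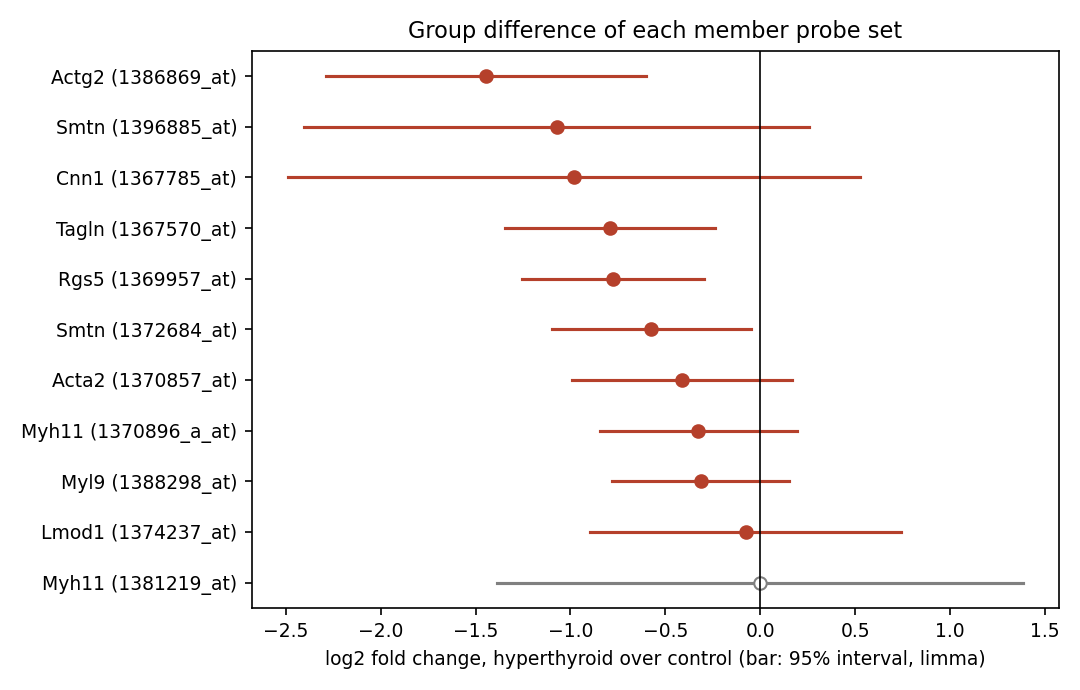
Log2 fold change (hyperthyroid over control, x axis) of the 11 member probe sets with the 95% interval of limma; the open grey point is the Myh11 probe set under the filter on low values. Intervals of Actg2, Tagln, Rgs5 and the brighter Smtn probe set lie below 0 before adjustment, and no probe set passed the adjusted threshold.

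The control arrays were not alike in these genes. With the brightest probe set of each gene, a control array was the highest of the 8 for 8 of the 9 genes. A hyperthyroid array was the lowest for all 9. These counts include Cnn1, whose direction was set by the filter, and the share of all genes with such an order was not counted. Control replicate 7 was the highest for Actg2, Cnn1, Myh11 and Tagln, control replicate 11 for Acta2, Rgs5 and Smtn, and control replicate 9 for Myl9. The coefficient of variation (SD over mean) was larger in control muscle for 5 genes, as for Rgs5 with 11.9% in hyperthyroid and 36.6% in control muscle, and larger in hyperthyroid muscle for 4, as for Lmod1 with 37.3% and 11.2%. The mean deviation from each gene's own mean, over the 9 genes on the log2 scale, was -0.27, -0.32, -0.20 and -0.47 on hyperthyroid arrays 1, 2, 3 and 5, and 0.59, 0.081, 0.0998 and 0.49 on control arrays 7, 8, 9 and 11. All hyperthyroid arrays lay below all control arrays in this mean, and control replicates 8 and 9 lay near 0. Cnn1 is part of the mean and stood at -2.45 on hyperthyroid replicate 5. How often a mean over other genes would part the groups in this way was not tested.

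Control replicates 7 and 11 were also the arrays richest in slow-fibre transcripts, with mean log2 deviations over 10 genes of 3.27 and 2.64. The hyperthyroid arrays lay at -3.08 to -0.16 there, and control replicates 8 and 9 at -0.50 and -0.31. In 5 Schwann cell and nerve markers replicates 7 and 11 were the highest too, at 1.57 and 0.71. This was not particular to these lists for replicate 11. It was also the highest array for the macrophage (1.28), red blood cell (0.65) and pericyte (0.58) markers described below, where control replicate 7 was at -0.23, 0.36 and 0.10. In the mean over the 9 member genes, too, control replicates 7 and 11 were the highest arrays, at 0.59 and 0.49. Leaving them out therefore had to lower the control side of that mean, and it left fewer arrays to test. Without both, 9 of the 10 probe sets had values below 0, with a median of -0.31, and an unadjusted p under 0.05 was reached by 2 in place of 4. Tagln then gave -0.33 ± 0.23, Rgs5 -0.49 ± 0.21, Actg2 -1.17 ± 0.51 and the brighter probe set of Smtn -0.29 ± 0.28 (SE), against -0.79, -0.78, -1.44 and -0.57 with all arrays. The dimmer probe set of Smtn lay farther from 0, at -1.30 ± 0.77 against -1.07. The part of the slow-fibre and nerve transcripts in the values of the smooth muscle genes was not tested.

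**Figure D3:**
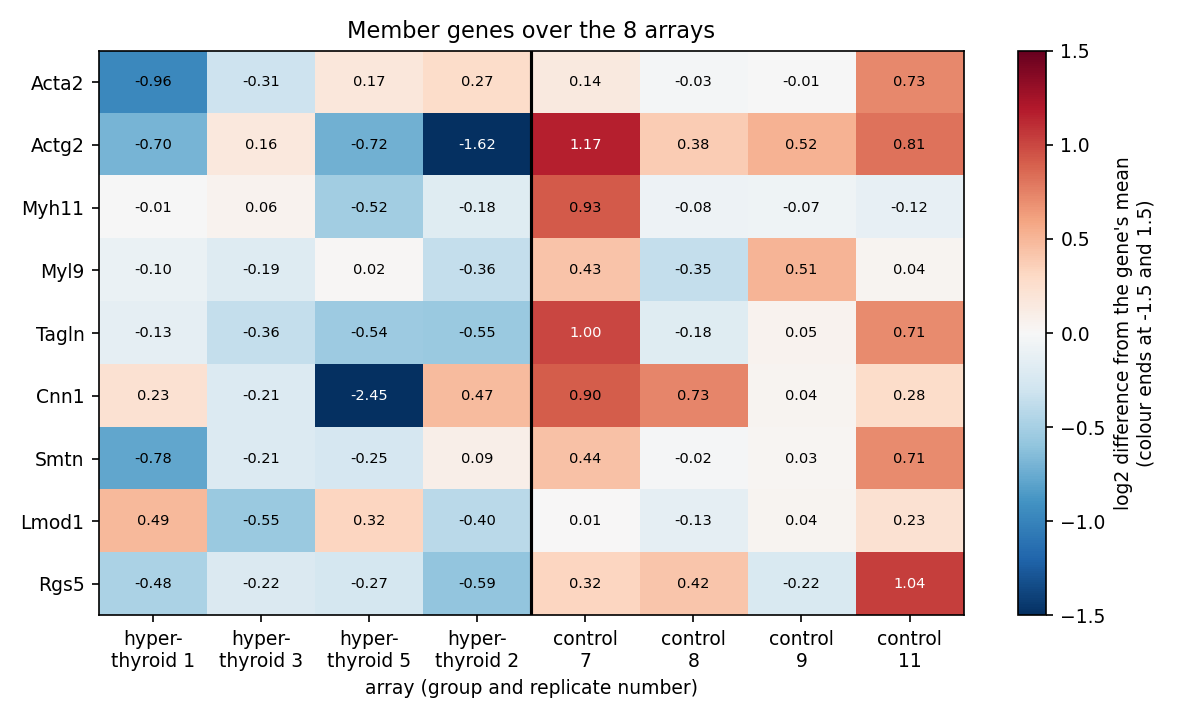
Difference of each of the 9 genes (rows, 1 probe set each) from its own mean on the log2 scale, for each array (columns, hyperthyroid left of the line, control right); numbers give the value and the colour scale ends at -1.5 and 1.5. Control replicates 7 and 11 hold most of the high values, and hyperthyroid replicate 5 is at -2.45 for Cnn1.

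The 9 genes varied together over the 8 arrays only in part. Of the 36 pairs of genes, 29 had a Pearson r above 0, with a median of 0.33 and a range from -0.29 to 0.89. No pair passed after adjustment over the 36 pairs (exact permutation over pairings, two-sided, smallest adjusted p = 0.230), and 6 pairs had an unadjusted p under 0.05. With Spearman's rho, 28 pairs lay above 0 and none passed (smallest adjusted p = 0.0804, exact permutation). When each value was centred on the mean of its group, which removes the difference between hyperthyroid and control rats, 18 pairs lay above 0 and the median r was 0.028. Tagln had the highest median r with the other 8 genes, 0.65, and Lmod1 the lowest, -0.029.

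Acta2 and Smtn had the highest r, 0.89 (rho 0.71, exact permutation p = 0.00640 and 0.0576, adjusted p = 0.230 and 0.4996). Centred on group means their r was 0.89 as well (exact permutation within groups, p = 0.00521, adjusted p = 0.188). It was 0.77 without hyperthyroid replicate 1, 0.82 without control replicate 11 and 0.88 without control replicates 7 and 11. Without hyperthyroid replicate 1 and control replicate 11 together, the 2 arrays farthest from the median of Acta2, it was 0.41, and leaving out the extremes of 1 of the genes narrows its range. Actg2 and Tagln had the highest rho, 0.93, and an r of 0.81 (exact permutation p = 0.00223 and 0.0148, adjusted p = 0.0804 and 0.236). Their r was 0.75 without the 2 arrays farthest from the median of Actg2 and 0.53 when centred. Both pairs were chosen after their values were seen.

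**Figure D4:**
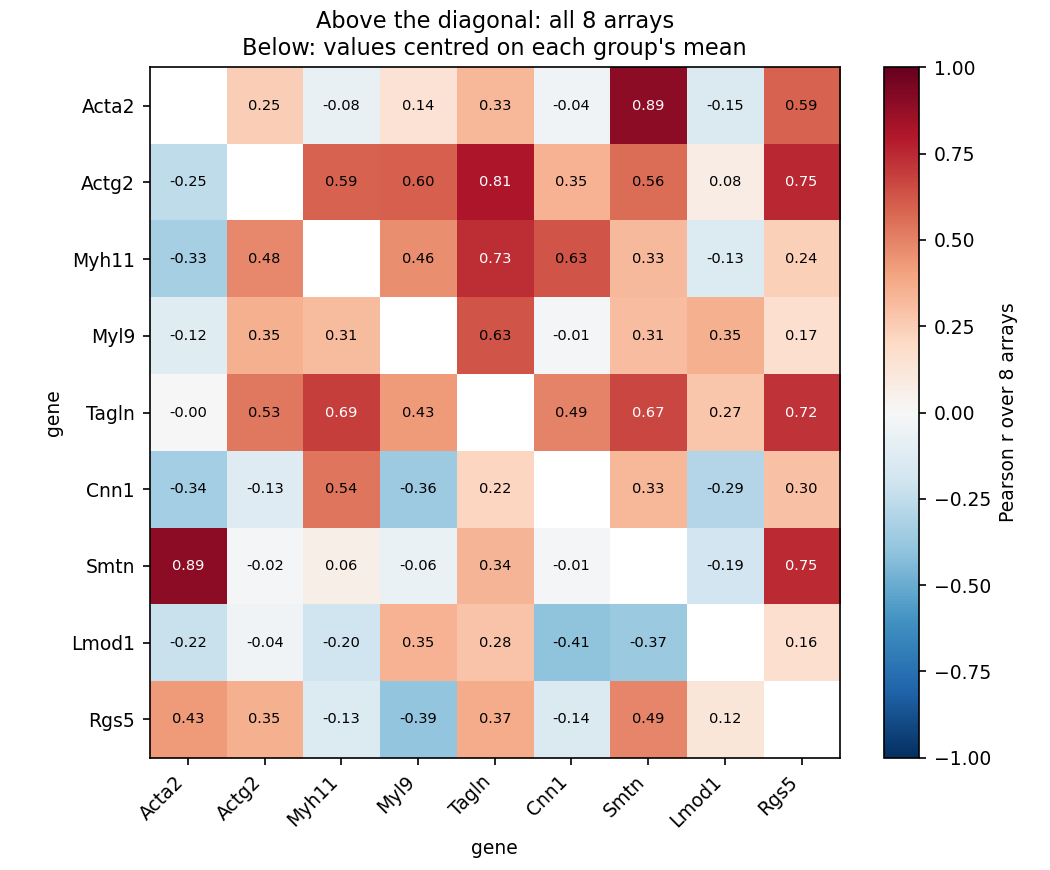
Pearson r over 8 arrays for each pair of the 9 genes, with all arrays above the diagonal and with values centred on each group's mean below it. The median of the 36 pairs is 0.33 above and 0.028 below the diagonal, and the pair of Acta2 and Smtn is at 0.89 in both.

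The genes whose pattern was most like that of Myh11, over 8 arrays centred on group means and among 10191 other genes, were LOC102549608, Dhx16, P2ry2, Afg2b and Paxx, with Pearson r from 0.95 to 0.97. None of them is on a list of vascular genes used here. Each was highest on control replicate 7, as Myh11 was: P2ry2, a nucleotide receptor, read 152 to 239 on the hyperthyroid arrays and 342 on control replicate 7, against 144 to 155 on the other 3 control arrays. Their log2 fold changes ran from -0.053 to 0.24, and none passed.

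Other markers of mural cells had mostly values below 0 as well. Over 10200 genes, each by its brightest kept probe set, the median log2 fold change was -0.00029, and 50.0% lay below 0. Of 14 pericyte and mural cell markers on the array, all 14 were measured. Their median was -0.38, with 12 below 0 and 2 above, and 0 passed with limma, against 0.0686% of all genes in either direction. An unadjusted p under 0.05 below 0 was reached by 3 of the 14, against 5.21% of all genes. These were Rgs4, another regulator of G-protein signalling, at -0.75 ± 0.26 (SE), Gja4, a connexin of vessel walls, at -0.74 ± 0.31, and Vtn, vitronectin, at -0.51 ± 0.23, with limma adjusted p from 0.347 to 0.454. Pdgfrb, the receptor by which pericytes are recruited, gave -0.021 ± 0.30, and Abcc9, a potassium channel subunit, -0.072 ± 0.16. Abcc9 was the brightest of the 14, with means of 1130 in hyperthyroid and 1172 in control muscle, and so weighs most in their sum. Which cells of the whole muscle gave the signal of Abcc9 was not tested. The summed intensity of the 14 ran from 2183 to 2996 on hyperthyroid and from 2670 to 3625 on control arrays, highest on control replicate 11, and that of the 9 member genes from 1591 to 1774 on hyperthyroid and from 2069 to 3188 on control arrays.

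Of 21 genes that regulate smooth muscle contraction, 17 were measured. Their median was -0.27, with 15 below 0 (50.0% of all genes), and 3 reached an unadjusted p under 0.05 below 0 (5.21% of all genes). Those were Pdlim3 and Tpm2, which skeletal fibres also express, at -0.53 ± 0.18 and -0.44 ± 0.16 (SE), and Gucy1a1, a subunit of the nitric oxide receptor, at -0.45 ± 0.19. Mylk, the kinase that phosphorylates the light chain, gave -0.056 ± 0.22, and no gene of the list passed. The list of SRF, its cofactors and linked genes had no common direction, with 4 of 11 measured genes below 0 and a median of 0.099. Srf gave 0.12 ± 0.19 and Myocd, myocardin itself, -0.39 ± 0.44, at intensities of 42.4 ± 23.1 in hyperthyroid and 51.4 ± 7.76 in control muscle (SD, n = 4 each). An unadjusted p under 0.05 above 0 was reached by 1 of the 11, against 5.38% of all genes: Smad3, a transducer of TGF-beta signals, gave 0.83 ± 0.25 (SE, limma adjusted p = 0.273), and Csrp1, a smooth muscle LIM protein, -0.53 ± 0.26.

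Endothelial cells share the vessel wall with these cells. Of 12 endothelial markers, all measured, 7 lay below and 5 above 0, with a median of -0.17, and none reached an unadjusted p under 0.05. Their summed intensity ran from 1801 to 2811 on hyperthyroid and from 1961 to 3016 on control arrays. Pecam1, an adhesion molecule of endothelium, gave 0.22 ± 0.32 and Vwf, the von Willebrand factor, -0.74 ± 0.38 (SE). The difference between the smooth muscle and the endothelial genes was not tested.

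Genes of the fibres themselves were below 0 too. All 9 skeletal muscle identity genes had values below 0, with a median of -0.21, and 4 reached an unadjusted p under 0.05 below 0 (5.21% of all genes), among them Acta1 at -0.58 ± 0.13 (SE, limma adjusted p = 0.170). All 4 actin genes measured, Acta1, Acta2, Actg1 and Actg2, were below 0. The slow-fibre list had 10 of 10 below 0 with a median of -2.71. Of the 10, 6 reached an unadjusted p under 0.05 below 0 (5.21% of all genes). Among the 6 was Tnnt1, the slow troponin T, which passed the filter only through the control arrays, so that its direction was set by the filter. Without Tnnt1, 9 of 9 were below 0 with a median of -2.71. Myh7, the slow myosin heavy chain, gave -4.41 ± 1.29 (SE). It read 5.83 to 169 on hyperthyroid arrays, and 5570, 56.0, 163 and 2692 on control arrays 7, 8, 9 and 11. Control replicates 8 and 9 thus lay within the hyperthyroid range. Summed intensities of that list ran from 1562 to 10145 on hyperthyroid and from 4895 to 50293 on control arrays.

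Markers of the remaining cell types had no shared direction. The fibroblast and tendon list had 4 of 12 below 0 and a median of 0.15, with sums from 5203 to 39110 on hyperthyroid and 3807 to 22576 on control arrays. The Schwann cell and nerve list had 4 of 5 below 0 and a median of -0.19, with sums from 667 to 1208 on hyperthyroid and from 467 to 3344 on control arrays. Of its genes 1 reached an unadjusted p under 0.05 below 0 (5.21% of all genes). That gene was Prx, the myelin protein periaxin, at -1.67 ± 0.61 (SE), and it passed the filter only through the control arrays. Without Prx, 3 of 4 were below 0 with a median of -0.18. The macrophage and leukocyte list had 3 of 6 below 0 with a median of -0.096 (2 of the 3, Aif1 and Cd68, passed the filter only through the control arrays), the adipocyte list 1 of 4 with 0.81, and the red blood cell list 2 of 3 with -0.296. Cd14, a lipopolysaccharide receptor of macrophages, reached an unadjusted p under 0.05 at 1.71 ± 0.71 (SE), the only gene of these lists to do so above 0 (5.38% of all genes). It read 68.6 to 115 on hyperthyroid arrays, and 37.1, 2.32, 27.9 and 118 on control arrays 7, 8, 9 and 11. The groups overlapped, with control replicate 11 the highest of all arrays. Control replicate 8 was below the 3.41 added to each intensity before the log. Sums over the macrophage list ran from 252 to 675 on hyperthyroid and from 203 to 985 on control arrays, over the adipocyte list from 1272 to 2634 and from 1209 to 2506, and over the red blood cell list from 4327 to 7900 and from 4199 to 12891. No gene of these 5 lists of other cells passed, and no marker counted here had a log2 fold change of exactly 0.

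**Figure D5:**
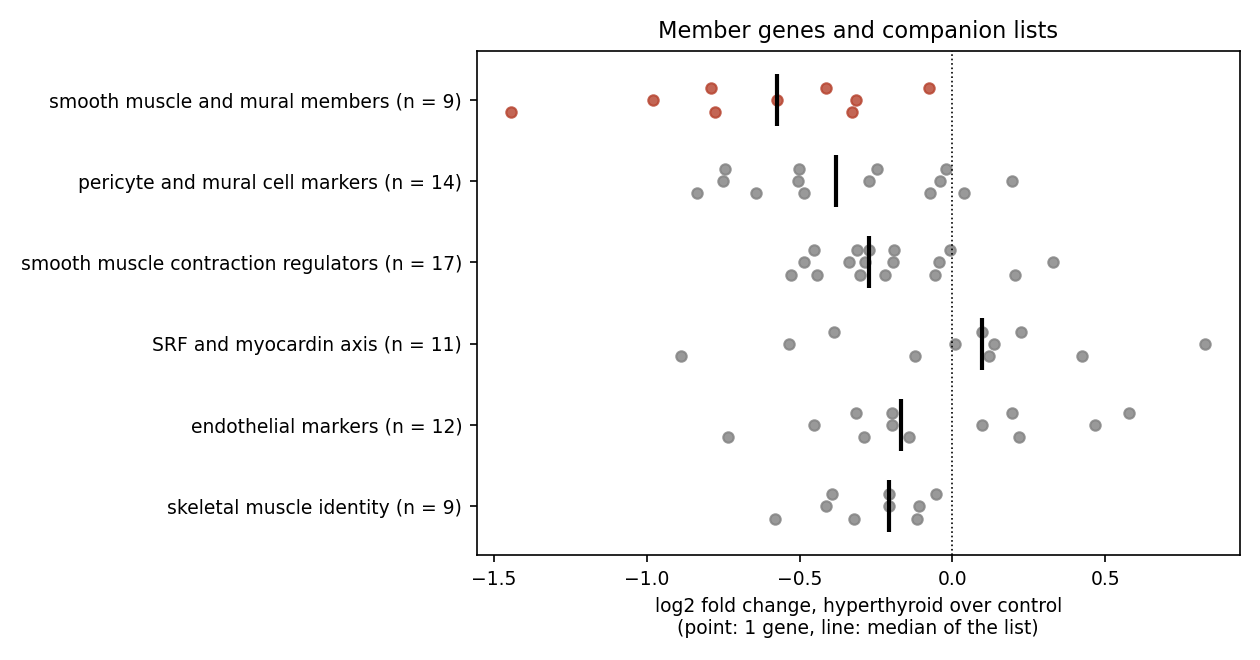
Log2 fold change (hyperthyroid over control, x axis) of each measured gene of the 9 members and 5 companion lists, with the median as a black line. Medians are -0.57 for the 9 genes, -0.38 for pericyte and mural cell markers, -0.27 for contraction regulators, 0.099 for the SRF and myocardin list, -0.17 for endothelial markers and -0.21 for skeletal muscle identity genes. Without Cnn1, which passed the filter only through the control arrays, the median of the other 8 member genes is -0.49.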

How the data were processed

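Whole tibialis anterior RNA was measured on Affymetrix arrays, 1 per rat, 4 hyperthyroid and 4 control. Per the labels' protocols, cDNA primed with oligo(dT) served as template for biotin-labelled complementary RNA, which favours the 3′ parts of transcripts. The deposited values are intensities made with GCOS, the Affymetrix software, per the submitters' processing notes, of which neither version nor setting is given in the sources used here. Each array's mean, trimmed by 2% at each end, is 150, the mark of scaling to 1 target, which removes differences in total signal. The platform annotation gave 1 gene symbol to 20826 of 31099 probe sets, several to 436 and none to 9780, and 57 were controls. Of the 20826, 20758 were found in RefSeq (GRCr8) by Entrez identifier, all under the same symbol.

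Values were analysed as log2(intensity + 3.41), the 10th percentile of all values, and fold changes on that scale understate those of dim probe sets. The 18625 probe sets with a mean log2 value above the 40th percentile (4.69, an intensity of about 22.4) were tested with limma 3.58.1 in R 4.3.3 (lmFit, eBayes with a trend, two-sided) and Benjamini-Hochberg adjustment at 0.05. The fit was tested on simulated data. Lists were counted over 10200 genes, each by its kept probe set of the highest mean. Correlations used that probe set and exact permutation of array pairings. With 4 arrays a group, their number limits the precision. The groups share no replicate number, and no batch is named in the labels. The members, lists and tests were chosen with earlier results of these data known. The rule for named genes took all members, up to 3 genes of each list by p, a few genes whatever their values (of which Actc1 has no probe set of its own here) and the 5 genes most like Myh11. A part of the list genes is named and the rest is counted, and Abcc9 was chosen after its value was seen. Alternatives were 2 other scalings, another pseudocount, a floor, other filters and variance models, other units of test and arrays left out.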

Additional observations from a re-analysis of the deposited data

Results flagged for a closer look

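Of 22 groups of 4 arrays (11 probe sets in 2 groups), 1 held an array far from the other 3: for Myh11 (1370896_a_at), control replicate 7 read 618 and the other control arrays 297 to 309. The gap to the next array was 0.943 of the group's range on the log2 scale, above Dixon's 95% critical value for 4 values. Chance alone flags about 1 group in 20, and the 22 groups are not independent because they come from the same 8 arrays. The cause of this flag was not tested. The same array was the highest of all 8 for Actg2, Cnn1 and Tagln, and without it the log2 fold change of Myh11 was -0.073 in place of -0.33.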

How the results depend on the processing

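No member probe set passed under any of the 21 alternatives (smallest adjusted p 0.140, for Rgs5 without control replicate 9), and of 205 values 199 kept their sign. The exceptions were all of Lmod1: 0.12 after quantile normalization, 0.14 with arrays centred on medians, 0.0061 without control replicates 7 and 11 together, 0.021 without control replicates 9 and 11 together, and between -0.25 and 0.095 with 1 array left out, above 0 without hyperthyroid replicate 3 or 2 (0.095 and 0.045). The cause was not tested. Centring on medians moved the median of all probe sets to 0.21 from -0.0077, and that of the members to -0.45 from -0.68. It shifts every log2 fold change by the same amount. The members' median relative to that of all probe sets, -0.67, therefore could not change. Centring also moved the share of all probe sets below 0 to 29.7% from 50.8%. The median of the members lay between -0.78 and -0.31 under all alternatives. The number with an unadjusted p under 0.05 was 2 without control replicates 7 and 11 together, in a fit of fewer arrays, between 3 and 5 with 1 array left out, and 3 with centring on medians, without the variance trend or without control replicates 9 and 11 together. With centring and without the trend it was the brighter probe set of Smtn that no longer counted, at -0.35 with centring. The number below 0 was 9 or 10 with 1 array left out, and 9 of 9 among probe sets above the filter in both groups, an alternative chosen after seeing the data. No correlation passed under any alternative, and the median r ran from 0.23 to 0.46 with 1 array left out. Over all probe sets, the number past the threshold, 6 in the main analysis, was 0 without the variance trend, 19 with centring on medians, 22 with robust variance, 16 without the filter and 1 with a gene's probe sets averaged. It was 10 with array weights, 0 without hyperthyroid replicate 3, control replicate 7 or control replicates 9 and 11 together, 1 without hyperthyroid replicate 1 or control replicates 7 and 11 together, 2 without control replicate 8 and 3 without hyperthyroid replicate 2. No paired analysis was possible because the groups share no replicate number.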
